A study of Homo sapiens with 6 samples.

Results

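miR-221 and miR-222 are miRNAs made from neighbouring hairpin genes on chromosome X, and each hairpin gives a 3p and a 5p mature form, its arms. The members were the miRNA probes of the array named hsa-miR-221-3p, hsa-miR-221-5p, hsa-miR-222-3p and hsa-miR-222-5p, which made 4 of the 2565 miRNA probes. The study searched for miRNAs that bind the long non-coding RNA HULC in pancreatic ductal adenocarcinoma (PDAC), and the arrays served to find those lowered by TGF-β, an inducer of epithelial-mesenchymal transition (EMT). Panc-1, an established human PDAC line, was kept for 72 h without TGF-β (0 ng/mL, control, 3 arrays) or with TGF-β at 10 ng/mL (3 arrays). Total RNA was labelled with Cy5 and each sample was read on a 1-colour 3D-Gene array. The control arrays lay together on a slide and the TGF-β arrays together on another, so the treatment and the slide cannot be told apart. The methods speak of independent experiments for the study's data in general but do not name the arrays, and the labels do not say whether the replicates came from separate cultures, so the p-values measure the spread between these samples, which may be technical.

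A miRNA hairpin is cut into a short duplex, and the arm that is loaded into an Argonaute protein pairs with target mRNAs mainly through its seed. The 3p arms of miR-221 and miR-222 are the better known forms, carry the same seed and repress a shared set of targets that includes the cell cycle inhibitor p27 (CDKN1B) and the receptor KIT. The pair is described as raised in many carcinomas, PDAC among them, and as promoting proliferation, while the 5p arms are regarded as the minor products.

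The mature sequences are shown because the shared seed is what joins both 3p arms and what separates them from the 5p arm. They were taken from RefSeq (GRCh38.p14), in which 3 of the 4 members matched by name. Each is written 5′ to 3′ with the seed, bases 2 to 8, in capitals. The first pair of sequences shares a seed.
hsa-miR-221-3p: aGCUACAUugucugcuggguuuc
hsa-miR-222-3p: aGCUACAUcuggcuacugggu
hsa-miR-222-5p: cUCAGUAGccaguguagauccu
The 3p arms were 23 and 21 bases long, with a GC content of 47.8% for miR-221-3p and 52.4% for miR-222-3p. miR-222-5p was 22 bases long with a GC content of 50%. The 3p arms were identical over their first 8 bases, and after that only scattered positions matched, so that 11 positions counted from the 5′ end held the same base. The seed GCUACAU was found in no other of the 2370 mature miRNA names of the reference, and no mature miRNA shared the seed UCAGUAG of miR-222-5p. On the array, 2253 probes had a mature sequence in that reference. The longest run of bases that miR-221-3p shared with any of the 2252 others was 9, reached by 5 miRNAs of which 4 were detected (miR-4686, miR-593-3p, miR-654-3p and miR-6779-5p), and its run with miR-222-3p was 8. For miR-222-3p the longest shared run was 8, reached by 6 miRNAs, of which miR-221-3p alone was detected. miR-222-5p shared a run of 11 bases with miR-1251-3p, whose probe was not detected.

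The hairpins show where each mature arm lies. They are given 5′ to 3′ from RefSeq (GRCh38.p14) on the minus strand, with the mature arms that the reference lists in capitals.
MIR221: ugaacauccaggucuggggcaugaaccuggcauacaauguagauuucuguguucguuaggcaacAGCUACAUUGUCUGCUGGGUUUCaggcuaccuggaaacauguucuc
MIR222: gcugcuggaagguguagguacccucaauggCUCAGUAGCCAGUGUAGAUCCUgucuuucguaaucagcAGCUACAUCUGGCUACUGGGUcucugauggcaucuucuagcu
MIR221 lies at chrX:45746157-45746266 and MIR222 at chrX:45747015-45747124. Each hairpin is 110 bases long, and the gap between them is 748 bp. Both lie inside MIR222HG, a long non-coding RNA gene annotated at chrX:45745214-45770267. In MIR221 the 3p arm takes bases 65 to 87. In MIR222 the 5p arm takes bases 31 to 52 and the 3p arm bases 69 to 89. The nearest miRNA genes on either side were MIR1587, ending at base 39837613, and MIR4769, starting at base 47587429.

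All 4 members were detected on all 6 arrays, that is, their signal was above the mean plus 2 SD of the blank spots of each array. The blank spots averaged 18.2, 19.1 and 21.3 intensity units for control replicates 1 to 3 and 19.4, 18.8 and 20.9 for TGF-β replicates 1 to 3. Of the 2565 miRNA probes, control replicates 1 to 3 detected 1531, 1604 and 1592, while TGF-β replicates 1 to 3 detected 1563, 1787 and 1586. The 1457 miRNAs that were above the limit throughout the control group, the TGF-β group or both were tested and are called detected here. The members' signals lay far above this limit. miR-221-3p stood 1134 to 1919.7 blank SDs above the blank mean and miR-222-3p 409 to 599. The 5p arms were nearer to it, at 22.4 to 35.3 blank SDs for miR-221-5p and 38.8 to 69.2 for miR-222-5p.

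None of the 4 members passed the test for a change with TGF-β, and the fitted changes were small, between 1.03-fold and 1.20-fold. The fitted value of every member lay above 0, the largest being that of miR-221-5p, which was also the one member whose TGF-β arrays all lay above its control arrays. In total RNA from a culture, fewer cells making a miRNA and less of it per cell cannot be told apart.

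miR-221-3p, the main arm of its hairpin, read 758, 906 and 974 intensity units on control replicates 1 to 3 and 901, 1033 and 984 on TGF-β replicates 1 to 3. Control replicate 1 was the lowest array and TGF-β replicate 2 the highest, and the groups overlapped. After subtraction of the blank mean and quantile normalization the log2 values were 9.73, 9.82 and 9.73 in the controls and 9.90, 9.82 and 9.90 with TGF-β. Quantile normalization gives equal ranks equal values, and the probe was the 58th brightest on control replicates 1 and 3, the 53rd on TGF-β replicates 1 and 3 and the 56th on replicate 2 of both groups. The groups met at replicate 2, and on the other arrays the TGF-β values were the higher. The log2 fold change was 0.11 (SE 0.057, n = 3 per group, 1.08-fold, 95% interval of the fold 0.987 to 1.18), with a limma adjusted p of 0.446 and an exact 2-sided permutation p of 0.2, where 0.1 is the smallest p that 3 arrays against 3 allow. Without control replicate 2 or TGF-β replicate 2, where the groups met, they no longer overlapped and the value was 0.14 in each case.

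miR-222-3p, which carries the same seed, read 285, 323 and 342 units in the controls and 327, 335 and 359.7 with TGF-β. Its highest array was TGF-β replicate 3 and its lowest control replicate 1, and the groups overlapped. The normalized log2 values were 8.28, 8.33 and 8.13 in the controls and 8.37, 8.13 and 8.35 with TGF-β. Control replicate 3 and TGF-β replicate 2 were lowest and nearly equal, and the other arrays of both groups lay within a narrow band. The log2 fold change was 0.040 (SE 0.087, n = 3 per group, 1.03-fold, 95% interval of the fold 0.900 to 1.17), with a limma adjusted p of 0.904 and an exact 2-sided permutation p of 0.5. Its sign turned without control replicate 3, at -0.016, and without TGF-β replicate 1, at -0.0018. It was 0.0029 without TGF-β replicate 3, 0.083 without control replicate 2 and 0.12 without TGF-β replicate 2, where the groups no longer overlapped.

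miR-221-5p, the minor arm, read 32.9, 33.9 and 42.3 units in the controls and 38.3, 37.4 and 41.5 with TGF-β. Control replicate 3 was the highest of all arrays, so the unscaled signals overlapped. That array also had the highest blank spots. The normalized log2 values were 3.98, 3.99 and 4.14 in the controls and 4.37, 4.17 and 4.36 with TGF-β. Every TGF-β array now lay above every control array, with the smallest gap between control replicate 3 and TGF-β replicate 2. The log2 fold change was 0.26 (SE 0.12, n = 3 per group, 1.20-fold, 95% interval of the fold 0.999 to 1.44), with a limma adjusted p of 0.369 and an exact 2-sided permutation p of 0.1, the smallest possible. The groups overlapped again when arrays were scaled by the median or the 75th percentile, when they were not normalized, and with the local background.

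miR-222-5p, the minor arm of the other hairpin, read 43.6, 47.7 and 59.8 units in the controls and 54.2, 55.3 and 51.9 with TGF-β. The control arrays spanned the TGF-β arrays at both ends. The normalized log2 values were 4.80, 4.96 and 5.07 in the controls and 5.28, 5.10 and 4.88 with TGF-β. TGF-β replicate 3 lay among the controls, and TGF-β replicates 1 and 2 lay above them. The log2 fold change was 0.14 (SE 0.13, n = 3 per group, 1.10-fold, 95% interval of the fold 0.907 to 1.34), with a limma adjusted p of 0.713 and an exact 2-sided permutation p of 0.4. The value was 0.043 without TGF-β replicate 1, 0.066 without control replicate 1 and 0.089 with no background correction. Without TGF-β replicate 3 it was 0.24, and the groups then no longer overlapped.

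**Figure D1:**
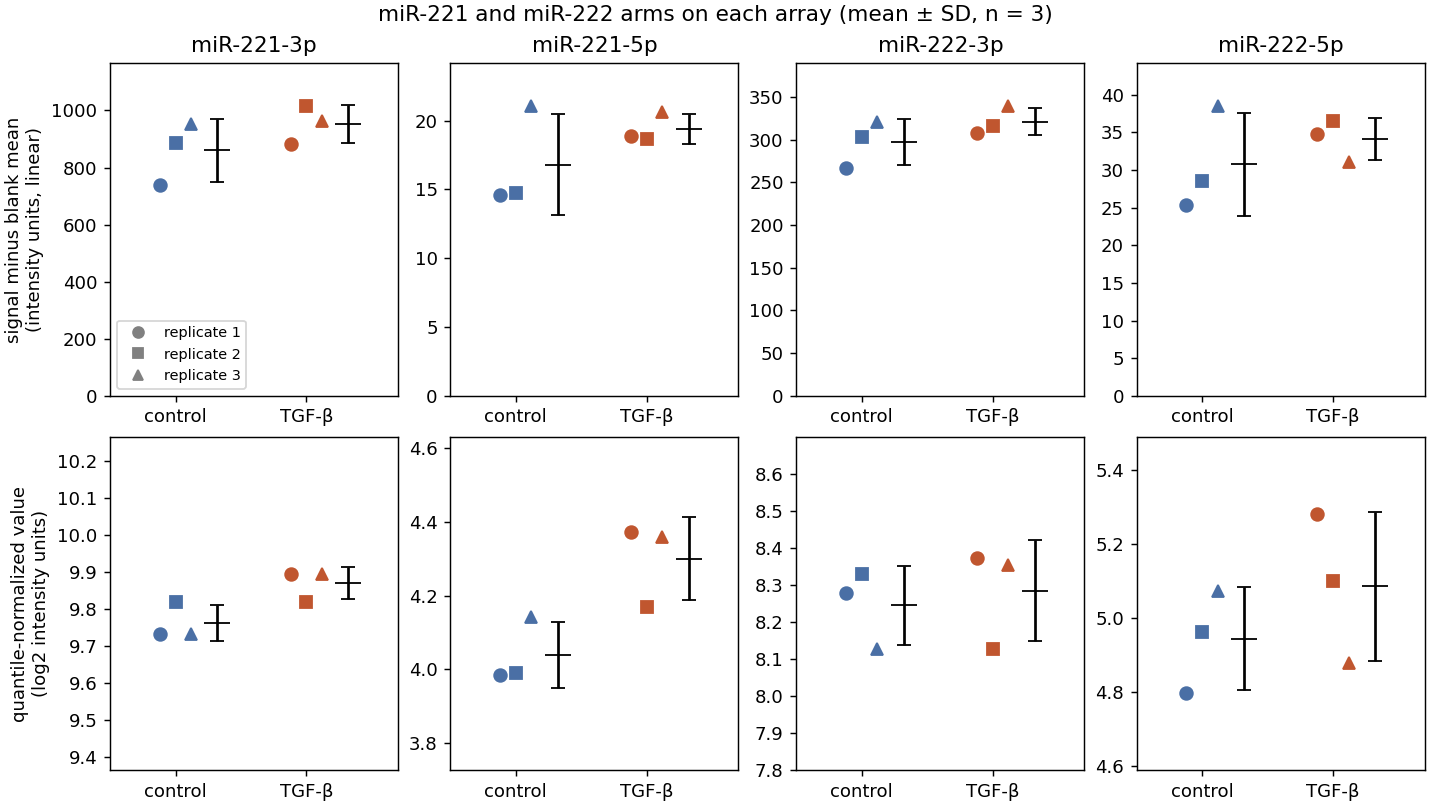
Signal minus the blank mean (top, linear intensity units) and quantile-normalized value (bottom, log2 intensity units) of each arm on the 3 control and 3 TGF-β arrays, with the mean and SD beside the points and the replicate number as the symbol. Only the normalized values of miR-221-5p had every TGF-β array above every control array, and the vertical scale differs from panel to panel.

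Set against all miRNAs tested, limma called 58 of the 1457 detected miRNAs (3.98%) at an adjusted p under 0.05, of which 38 were higher and 20 lower with TGF-β. The split was 27 higher of 35 called without normalization between arrays and 27 of 31 with the authors' deposited values. Over the 20 alternatives the number called ranged from 0 with the local background to 65 with the robust fit. It was 26 without TGF-β replicate 2 and 17 with the methods' t-test. None of the 4 members was among the calls. At an unadjusted p under 0.05 limma took 200 miRNAs and 0 members, and the methods' t-test took 195 miRNAs, miR-221-3p and miR-221-5p among them, and called 0 members after adjustment. Under 7 of the other alternatives limma also took miR-221-5p at an unadjusted p under 0.05, and in 1 of these, with all miRNA probes tested, miR-221-3p as well. These 7 were no background correction, all probes, detection on all arrays, a limit of 3 SD, the robust fit, and leaving out control replicate 3 or TGF-β replicate 2. The TGF-β arrays lay wholly above the control arrays for 128 of the 1457 miRNAs (8.79%), and miR-221-5p was 1 of these. The median log2 fold change over all 1457 was -0.013, and 47.5% of them were above 0. A change at least as large in either direction was found in 61.7% of the detected miRNAs for miR-221-3p, 85.0% for miR-222-3p, 30.5% for miR-221-5p and 53.1% for miR-222-5p. The members' changes lay in the body of the distribution.

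**Figure D2:**
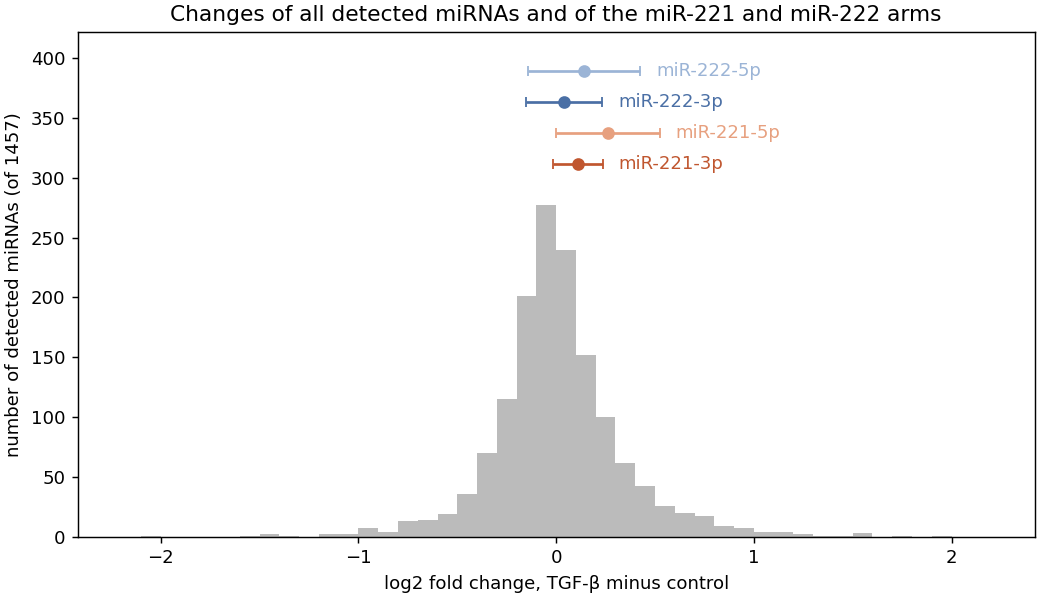
Histogram of the log2 fold change (TGF-β minus control) of the 1457 detected miRNAs, with each arm's fold change as a point and its 95% interval as a bar placed above the histogram. The intervals of all 4 arms included 0, that of miR-221-5p by the smallest margin.

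The choice of scaling moved the size of these changes. With arrays scaled by the median the log2 fold changes were 0.18 for miR-221-3p, 0.14 for miR-222-3p, 0.25 for miR-221-5p and 0.19 for miR-222-5p, above 1.5 times the quantile-normalized value for both 3p arms. The authors' deposited values gave larger ones, and in them the median of all detected miRNAs was itself shifted by 0.11. miR-221-3p averaged 3362 ± 409.9 (SD, n = 3) in the deposited control values and 4098 ± 651 with TGF-β, and its log2 change was 0.17 relative to that median. miR-222-3p averaged 1163 ± 127 and 1374 ± 122, with a relative change of 0.13. These groups overlapped, with exact 2-sided permutation p of 0.3 for miR-221-3p and 0.2 for miR-222-3p. miR-221-5p averaged 65 ± 5.57 and 83 ± 5.29, with a relative change of 0.24, and its groups did not overlap, at 60, 64 and 71 in the controls and 79, 89 and 81 with TGF-β (exact permutation p = 0.1). miR-222-5p averaged 119 ± 13.5 and 147 ± 26.6, with a relative change of 0.19 and overlapping groups.

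Direction turned in 1 setting besides the left-out arrays, the correction by the local background around each spot. The local background was 1.04 and 0.969 times the spot's own signal for miR-221-3p on replicate 1 of control and TGF-β, and 0.520 to 0.628 times on the other arrays. For miR-222-3p it was 0.932 and 0.946 times on replicate 1 of control and TGF-β and 0.541 to 0.628 times on the others. The background around these spots thus came close to, or passed, the signal of the spot on replicate 1 of both groups. Corrected by it, the log2 fold change of miR-222-3p was -0.43 (SE 0.33) and that of miR-222-5p -0.060 (SE 0.083), while miR-221-3p and miR-221-5p had values of 0.25 (SE 0.91) and 0.019 (SE 0.043). With no background correction at all, miR-221-5p had 0.13.

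**Figure D3:**
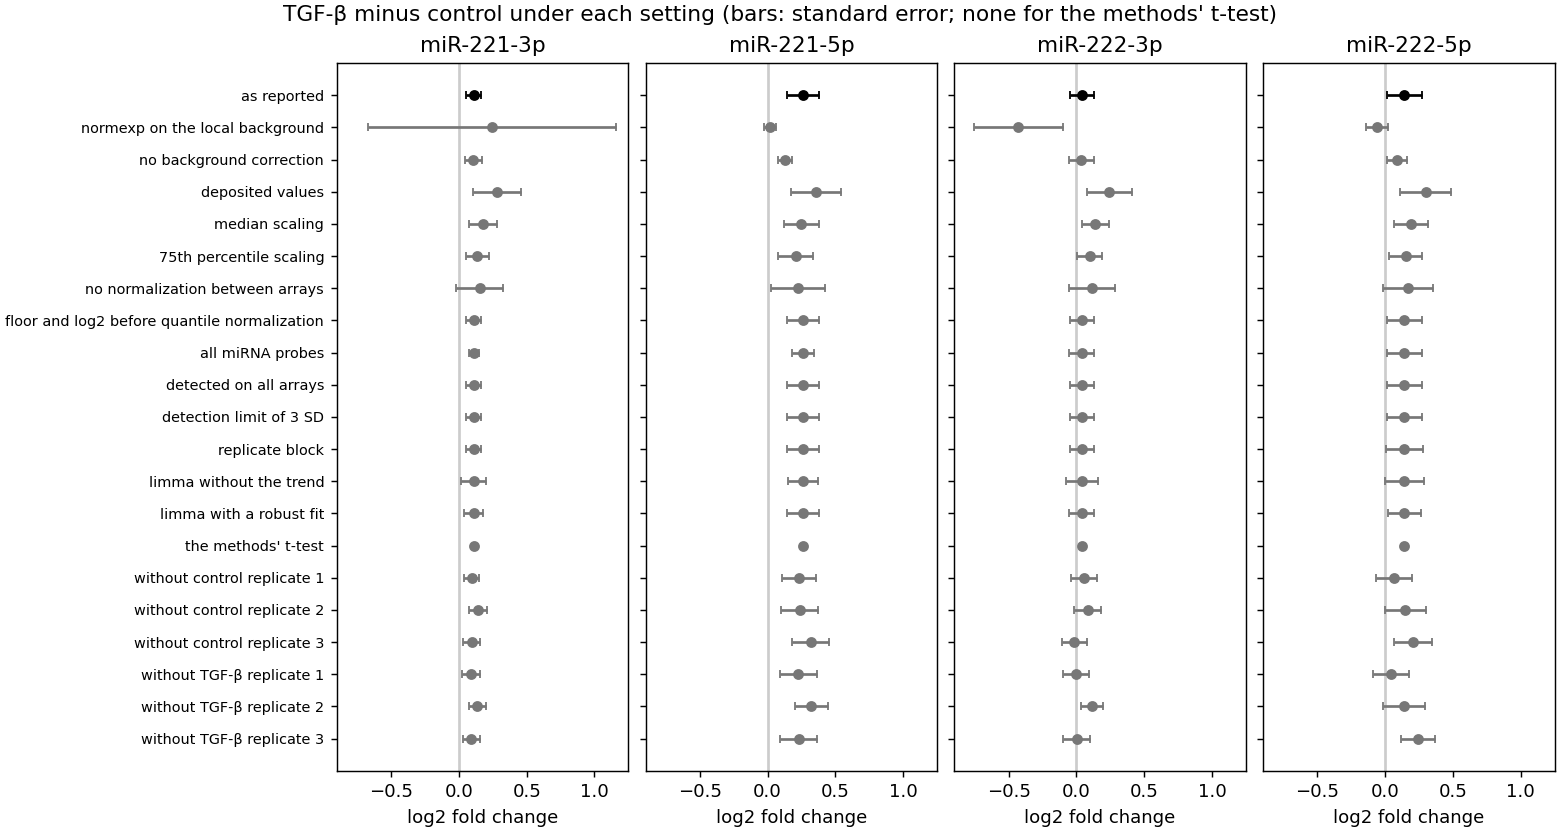
Log2 fold change (TGF-β minus control) of each arm as reported, in black, and under each other setting, in grey, with the standard error as a bar except for the methods' t-test. miR-221-3p and miR-221-5p lay above 0 under all 20 alternatives, miR-222-3p under 17 and miR-222-5p under 19, and none was called under any. Alternatives that change only the filter, block or test keep the reported fold change, so the sign could not turn in them.

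The arm ratio compares the 3p with the 5p signal of a hairpin within each array. Probes differ in how well they capture their target, so it is a ratio of signals and not of molecules, and only its change between groups was tested. Neither arm ratio passed that test. For miR-221 the 3p signal minus blank was 50.6, 60.1 and 45.3 times the 5p signal in the controls and 46.8, 54.4 and 46.7 times with TGF-β. Replicate 2 was highest in both groups and the groups overlapped, at 52.0 ± 7.52 (SD, n = 3) against 49.3 ± 4.42. On the normalized values the log2 change was -0.15 (SE 0.14, 95% interval -0.44 to 0.13), with a limma adjusted p of 0.890 and an exact 2-sided permutation p of 0.2. Its sign turned with the local background, to 0.23 (SE 0.85). The change was smaller, at -0.071, under median scaling, 75th percentile scaling and no normalization, and -0.073 with the deposited values. These settings differ only by a factor per array, which cannot change a ratio within it, so they are the same calculation up to rounding. With no background correction the change was -0.019. Leaving out 1 array gave -0.22 (without control replicate 3) to -0.097 (without control replicate 2). The TGF-β ratios lay wholly below the control ratios without control replicate 3 and without TGF-β replicate 2 (-0.19).

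For miR-222 the ratio was 10.5, 10.6 and 8.33 in the controls and 8.84, 8.65 and 10.9 with TGF-β. The groups covered the same range, with control replicate 3 at the bottom and TGF-β replicate 3 at the top. The means were 9.84 ± 1.31 (SD, n = 3) and 9.48 ± 1.26. The log2 change was -0.10 (SE 0.15, 95% interval -0.41 to 0.21), with a limma adjusted p of 0.933 and an exact 2-sided permutation p of 0.7. The change was -0.37 with the local background and -0.052 with no background correction. It was -0.053 under median scaling, 75th percentile scaling and no normalization, and -0.057 with the deposited values, again the same calculation up to rounding. Among the left-out arrays, it was -0.24 without TGF-β replicate 3 and -0.22 without control replicate 3. It was -0.064 without control replicate 2, -0.045 without TGF-β replicate 1, -0.020 without TGF-β replicate 2 and -0.012 without control replicate 1, below 0 in each case.

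Among 382 precursors with both arms detected, limma called 1 change of arm ratio (0.262%), and 27 had an unadjusted p under 0.05. With no background correction 14 were called and 44 had an unadjusted p under 0.05, again without either hairpin among the calls. Of the miR-221 and miR-222 hairpins, 0 were called by limma or by the methods' t-test, and 0 had an unadjusted p under 0.05 by either. A change as large in either direction was found in 58.9% of the precursors for miR-221 and 70.4% for miR-222. The called precursor was miR-154, whose log2 3p to 5p ratio was 3.34, 3.28 and 3.48 in the controls and 4.01, 3.96 and 4.03 with TGF-β. Its change was 0.63 (SE 0.12, limma adjusted p = 0.0163). The call was lost when control replicate 2 or any 1 of the TGF-β arrays was left out, with 0 precursors then called. With the local background, all miRNA probes, limma without the trend or the methods' t-test, 0 precursors were called as well.

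**Figure D4:**
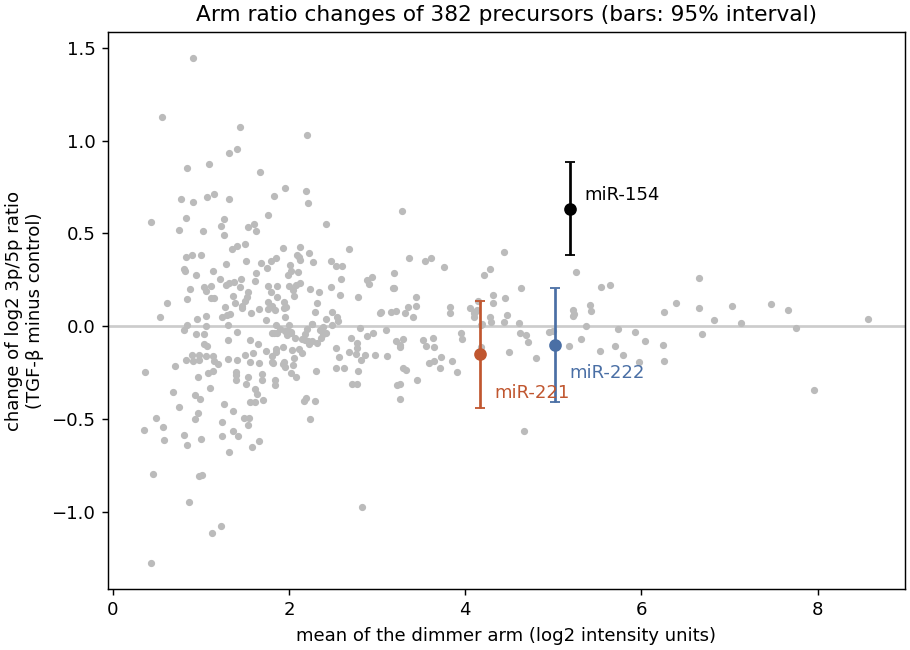
Change of the log2 3p to 5p ratio (TGF-β minus control) of the 382 precursors against the mean of the dimmer arm (log2 intensity units), with 95% intervals for miR-221, miR-222 and miR-154. Both hairpins lay near 0 with intervals that included it, and miR-154 stood apart from 0.

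The arms that correspond between the hairpins were compared in the same way. The signal of miR-221-3p was 2.77, 2.92 and 2.97 times that of miR-222-3p in the controls and 2.86, 3.21 and 2.84 times with TGF-β. The groups overlapped, and the ratio varied little between arrays, with means of 2.89 ± 0.107 (SD, n = 3) and 2.97 ± 0.204. The log2 change of the normalized ratio was 0.069 (SE 0.071), with an exact 2-sided permutation p of 0.4, and it was 0.67 (SE 0.78) with the local background. Median scaling, 75th percentile scaling, no normalization and the deposited values each gave 0.039. These settings differ only by a factor per array, which cannot change a ratio within it, so they are the same calculation up to rounding. It was 0.020 without TGF-β replicate 2, 0.041 without control replicate 1 and 0.11 without control replicate 3, where the groups no longer overlapped. The signal of miR-221-5p was 0.578, 0.517 and 0.547 times that of miR-222-5p in the controls and 0.542, 0.510 and 0.665 times with TGF-β. TGF-β replicate 3 lay above all other arrays, and the remaining values overlapped. The log2 change was 0.12 (SE 0.14), with an exact 2-sided permutation p of 0.5. It rested on TGF-β replicate 3, whose normalized log2 ratio was -0.52. TGF-β replicates 1 and 2, at -0.91 and -0.93, lay within the control values of -0.81, -0.97 and -0.93.

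**Figure D5:**
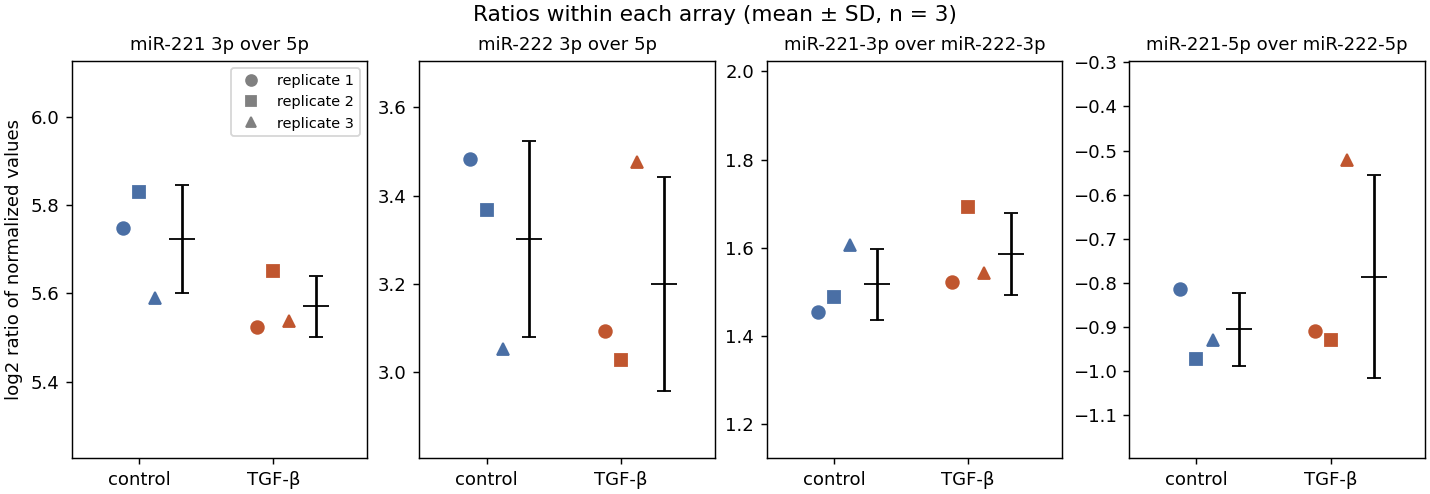
Log2 ratio of normalized values within each array for the arms of each hairpin and for the corresponding arms of both hairpins, on 3 control and 3 TGF-β arrays, with the mean and SD beside the points. The groups overlapped in all 4 panels.

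The pattern of each 3p arm over the 6 arrays was compared with those of the other 1281 miRNAs detected on all arrays, by the root mean square difference of log2 values centred on each miRNA's own mean. The nearest to miR-221-3p were miR-28-5p (0.037), miR-193a-5p (0.038), miR-574-3p (0.041), miR-99b-5p (0.042) and miR-19b-3p (0.046). The other members lay farther from it, miR-222-3p at rank 49 (0.079), miR-221-5p at rank 155 (0.11) and miR-222-5p at rank 350 (0.15), and the median over all was 0.20. The nearest to miR-222-3p were miR-1273h-5p (0.043), miR-92a-3p (0.058), miR-3651 (0.064), miR-4507 (0.064) and miR-6165 (0.067). From miR-222-3p, miR-221-3p came at rank 15 (0.079), miR-221-5p at rank 347 (0.16) and miR-222-5p at rank 575 (0.20). These miRNAs share the arrays and the normalization, and a small difference is easily reached by miRNAs that vary little. For miR-221-3p the root mean square deviation from its own mean was 0.066 over the 6 arrays.

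Of 11 other miRNAs described as raised in pancreatic cancer, all 11 were detected, 1 was called higher and 1 lower, and their median log2 fold change was 0.07. Over all 1457 miRNAs tested, 3.98% were called (38 higher and 20 lower) and the median was -0.013, and these values hold beside each list. miR-100-5p rose by 0.75 (adjusted p = 1.03e-05) and was not called with the local background (0.31), and miR-10b-5p fell by 0.39 (adjusted p = 0.00252), a call that was made under 14 of 20 alternatives and whose sign turned with the local background. The highest value in that list was 1.57 (SE 0.44) for miR-143-3p, which missed the threshold (adjusted p = 0.0919). Its control signals lay near the detection limit, at 19.7, 21.4 and 26.0 units against limits of 19.5, 20.4 and 22.8. With TGF-β it read 23.9, 35.3 and 26.5 units on replicates 1 to 3. All 12 miRNAs described as raised by TGF-β were detected, 3 were called higher and 0 lower, and the median was 0.10. The calls were miR-181a-5p (1.19), miR-181b-5p (1.28) and miR-23a-3p (0.29), the last of which was called under 11 of 20 alternatives and not, among others, without TGF-β replicate 2 (0.25, adjusted p = 0.0821). With the local background miR-181a-5p had 0.56 and miR-181b-5p 0.087, and neither was called, while both were called under the other 19 alternatives. In this list miR-143-3p again had the highest value and miR-199a-5p the lowest (-0.27, adjusted p = 0.814). Its member miR-145-5p (0.44, detected on 5 arrays) entered the test only through the TGF-β group, where it was brighter. The same held for miR-223-3p (0.44, detected on 4 arrays) in the pancreatic cancer list. For both the filter favoured a value above 0. Of 132 other chromosome X miRNAs on the array 74 were detected, 0 were called higher and 1 lower, and the median was -0.04. That call was miR-374c-5p, which fell by 0.36 (adjusted p = 0.0164), again with the opposite sign under the local background. It was called under 10 of 20 alternatives, and the left-out arrays that lost the call were control replicate 2 (-0.31, adjusted p = 0.128), TGF-β replicate 1 (-0.32, adjusted p = 0.0702) and TGF-β replicate 2 (-0.36, adjusted p = 0.0908). The extremes were miR-4329 at 1.01 (adjusted p = 0.136) and miR-2114-3p at -0.65 (adjusted p = 0.446). Each was near the limit, detected on 5 of 6 arrays, and entered the test only through its brighter group, TGF-β for miR-4329 and control for miR-2114-3p, so the filter favoured a difference in that direction.

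The labelled cell type was checked against miRNAs that mark other cells. Of 6 epithelial miRNAs, known to be lowered in EMT, 2 were detected, miR-200a-3p at a log2 fold change of 0.22 and miR-200b-3p at -0.01, and neither was called (adjusted p = 0.769 and 0.994). The other 4 were detected on 0 to 3 arrays each, miR-141-3p on none. The acinar, endocrine and liver markers were not detected by the rule used, and the 3 blood cell markers were detected near the limit, with a summed signal above blank of 3.43 to 13.0 units. Of 3 muscle miRNAs, miR-1-3p fell by 1.51 and miR-133a-3p by 1.47, and miR-206 had a value of 0.05. With the local background miR-1-3p had 0.17 and miR-133a-3p -0.46, and neither was called, and the methods' t-test did not call miR-133a-3p after adjustment. The summed signal above blank of the 3, most of it from miR-1-3p, was 449, 509.5 and 649.7 units in the controls and 183, 225 and 178 with TGF-β. The source of these signals, and any part of it in the members' values, was not tested.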

How the data were processed

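Median spot intensity at the Cy5 wavelength was deposited by the authors for 6 arrays, unnormalized, and their processed intensity (blank-subtracted, scaled to a median of 25, linear) was used as an alternative. It was rebuilt here to within rounding. How the scans at several gains were joined is not given in the sources used here. The mean of the 320 blank spots (5% left out at each end) was subtracted, miRNA probes were quantile normalized, and a floor of 1 unit and log2 followed. The local background, being dependent on the spot's signal, was an alternative (normexp, offset 50). Detection required a signal above the blank mean plus 2 SD on every array of a group. No member was among the 3 flagged miRNA spots, which were left out. R 4.3.3 with limma 3.58.1 (lmFit, eBayes with an intensity trend, Benjamini-Hochberg over 1457 miRNAs or 382 precursors, threshold 0.05) gave the tests. Arm ratios were fitted as 3p minus 5p, with the dimmer arm's mean for the trend. Single values had exact permutation tests. The calculations were tested on simulated data. Figures used Python 3.11.15 and matplotlib 3.10.9.

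Named miRNAs were the members, those sharing a seed, the called and extreme miRNAs of each list (raised in pancreatic cancer, epithelial, raised by TGF-β, chromosome X), the 5 nearest patterns to each 3p arm, and called precursors. The miRNAs named for a shared run of bases lie outside that rule and were chosen after their values were seen. Marker lists covered blood, liver, muscle, acinar, endocrine and epithelial cells. Members and lists were chosen with earlier results of these data known. The 20 alternatives changed background, normalization, filter, test or replicate block, or left out 1 of the 6 arrays. The number of arrays limits the precision.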

Additional observations from a re-analysis of the deposited data

How the results depend on the processing

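No alternative called any of the 4 members, and their adjusted p ranged from 0.306 to 1.00. Log2 fold changes ranged from 0.090 to 0.28 for miR-221-3p, 0.019 to 0.35 for miR-221-5p, -0.43 to 0.24 for miR-222-3p and -0.060 to 0.30 for miR-222-5p. With normexp on the local background miR-222-3p was -0.43, miR-222-5p -0.060, the miR-221 arm ratio change 0.23 and the miR-221-3p over miR-222-3p change 0.67, with 0 miRNAs (35 at an unadjusted p under 0.05) and 0 precursors (3 unadjusted) called by limma. The cause was not tested. The 58 calls became 31 with the deposited values, 35 without normalization, 20 with all probes, 31 without the trend and 17 with the methods' t-test, which called 195 before adjustment. The 1 called precursor became 14 without background correction, 2 with the deposited values and 0 with all probes, without the trend (30 unadjusted) or with the methods' t-test (26 unadjusted). Leaving out 1 array gave 26 to 51 calls (35 without control replicate 2, 26 without TGF-β replicate 2, 33 without TGF-β replicate 3) and 0 to 1 precursors (0 without control replicate 2 and without each TGF-β array). It gave -0.016 to 0.12 for miR-222-3p, below 0 without control replicate 3 (-0.016) and without TGF-β replicate 1 (-0.0018). miR-221-5p had non-overlapping groups under 16 of 20 alternatives. Those that change only the filter, block or test keep the array values, so no overlap could arise in them. Leaving out an array could hardly bring separated groups to overlap. Among the settings that recompute the values, the groups stayed apart without background correction, with the deposited values and with the floor and log2 set before quantile normalization. They overlapped under median scaling, percentile scaling, no normalization and the local background.

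With the replicate number as a block, 61 miRNAs were called, 54 of them among the 58, and 1 precursor, and no member was called. Deviations of same-numbered arrays correlated at 0.13, 0.11 and -0.03, and not every array correlated best with its own number. The blank spots were brightest on replicate 3 of both groups, at 21.3 units in control and 20.9 with TGF-β. Whether same-numbered arrays share more than a number was not tested. Both groups hold the same replicate numbers, so the block could not move the members' fold changes or ratio changes, only their errors. By construction the log2 fold changes stayed at 0.11 for miR-221-3p, 0.26 for miR-221-5p, 0.040 for miR-222-3p and 0.14 for miR-222-5p. The arm ratio changes likewise stayed at -0.15 for miR-221 and -0.10 for miR-222, and the ratio between the 3p arms at 0.069. The dimmest member value lay 22.4 blank SDs above the blank mean, for miR-221-5p.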
